A study of Mus musculus with 2 samples.

Results

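The killer cell lectin-like receptor (Klr) family was described in CD45+ cells sorted from mouse hearts and profiled by scRNA-Seq. Its members were all genes whose symbol starts with Klr, pseudogenes included, which gave 29 of the 23946 genes listed in either library. The hearts came from WT female mice of the strain labelled C57BL6, given as C57BL/6J in the methods. The mice of the model were 8 to 16 weeks old. The TTS library was made 24 hours after a single intraperitoneal injection of 200 mg/kg isoproterenol (ISO), a β-adrenergic agonist that models Takotsubo syndrome (TTS), and the Control library after an injection of PBS vehicle. The labels name the ISO dose for both samples, so the title alone tells which is the control. Cells of 3 hearts were pooled in each library, so each group has 1 library, no animal can be traced, and no difference below has a replicate check. Values are given with 95% counting intervals, which do not cover differences between mice, sorts or cells.

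Klr genes encode C-type lectin-like receptors on the surface of natural killer (NK) cells and of some T cells, and most of them lie in the NK gene complex. The Klra genes encode the Ly49 receptors, which bind MHC class I molecules, and the Klrb1 genes encode the NKR-P1 receptors, which bind Clec2 proteins. CD94 (Klrd1) pairs with NKG2A (Klrc1) or NKG2C (Klrc2) and binds the nonclassical MHC molecule Qa-1, while NKG2D (Klrk1) binds the stress-induced RAE-1, H60 and MULT1 ligands. Inhibitory members signal through phosphatases recruited to their cytoplasmic tails, and activating members signal through adaptors such as DAP12 and DAP10. Of the 29 members, 8 were classed as activating, 12 as inhibitory, 2 as partner chains (Klrd1 and Klre1) and 3 as pseudogenes, and 4 were not classed.

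All 29 members lie on chromosome 6 in the GENCODE annotation of GRCm38, the assembly also called mm10. Klrg2 and Klrg1 lie apart, and the other 27 fill a span of 2.64 megabases at chr6:128609227-131247362. Exons of 2 members, Klrb1b and Klrb1c, overlap those of the gene Gm44511 on the same strand. The promoters of 23 members were found in RefSeq on GRCm38.p6, as 250 bases before and 50 after the transcription start. The 4 promoters below are shown because they belong to closely related Klra genes that were read in different cells: Klra4 (Ly49D) and Klra8 (Ly49H) in NK cells, Klra17 (Ly49Q) in plasmacytoid dendritic cells, and Klra2 (Ly49B) in macrophages. Klra4 is at chr6:130067222-130067521, Klra8 at chr6:130129849-130130148, Klra17 at chr6:129876623-129876922 and Klra2 at chr6:131247313-131247612, all on the minus strand. They are printed 5′ to 3′. Capitals mark the longest run of bases shared with the Klra4 promoter, or for Klra4 with that of Klra8.
Klra4: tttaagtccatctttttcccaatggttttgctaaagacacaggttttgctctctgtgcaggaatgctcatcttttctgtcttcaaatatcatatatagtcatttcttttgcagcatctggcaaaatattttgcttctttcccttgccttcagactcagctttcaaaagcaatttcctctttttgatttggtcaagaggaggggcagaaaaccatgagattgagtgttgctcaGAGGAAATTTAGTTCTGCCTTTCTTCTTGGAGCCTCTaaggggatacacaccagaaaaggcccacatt
Klra8: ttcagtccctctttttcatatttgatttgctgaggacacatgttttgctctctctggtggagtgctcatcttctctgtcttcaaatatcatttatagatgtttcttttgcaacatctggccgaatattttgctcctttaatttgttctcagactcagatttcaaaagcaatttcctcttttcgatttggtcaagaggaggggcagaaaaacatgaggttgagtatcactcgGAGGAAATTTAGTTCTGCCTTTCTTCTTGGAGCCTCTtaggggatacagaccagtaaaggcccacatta
Klra17: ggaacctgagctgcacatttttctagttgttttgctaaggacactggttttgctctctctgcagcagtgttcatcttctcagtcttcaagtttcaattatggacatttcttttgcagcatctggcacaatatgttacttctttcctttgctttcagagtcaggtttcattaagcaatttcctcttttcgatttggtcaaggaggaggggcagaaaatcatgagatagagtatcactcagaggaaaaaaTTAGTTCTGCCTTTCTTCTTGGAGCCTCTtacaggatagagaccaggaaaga
Klra2: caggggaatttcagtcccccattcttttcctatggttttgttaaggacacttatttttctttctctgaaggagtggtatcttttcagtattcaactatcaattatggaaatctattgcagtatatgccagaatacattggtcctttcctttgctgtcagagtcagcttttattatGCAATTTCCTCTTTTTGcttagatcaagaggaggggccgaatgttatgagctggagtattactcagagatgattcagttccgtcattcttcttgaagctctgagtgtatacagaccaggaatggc
Against Klra4, the aligned bases were 86.6% identical in Klra8, 84.2% in Klra17 and 76.8% in Klra2. The longest shared runs were 37, 29 and 17 bases. The promoters of Klra4 and Klra17, whose transcripts were read in different cells, were thus nearly as alike as those of Klra4 and Klra8. The letters TGTGGT, searched on both strands as a core of the RUNX motif, were in 9 of the 28 promoters of these 23 members, which belong to 8 genes (Klra1, Klrb1a, Klrb1c, Klrc1, Klrc2, Klrc3, Klre1 and Klrk1), and in 16.8% of all 32851 promoters. The T-box letters TCACAC were in 4 of the 28 and 14.5% of all, and the ETS letters AGGAAG in 9 of the 28 and 35.4% of all. None of the 4 promoters above held any of these letters.

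Because reads were counted near the 3′ end of transcripts, members with alike 3′ ends can exchange reads. Over the last 300 bases of the longest transcripts, Klra3 and Klra9 were 98.7% identical with a shared run of 87 bases, and Klra8 and the pseudogene Klra14-ps were 94.9% identical with a run of 51 bases. Less alike were Klra6 and Klra8, at 89.4% with a run of 40 bases, and Klra5 and Klra8, at 88.9% with a run of 44. Klra1 and Klra4 were 89.0% identical with a run of 24 bases. Counts of all these genes are uncertain for that reason.

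After the cell filters, 5641 Control and 5437 TTS cells remained, with medians of 4790 and 8537 UMIs (unique molecular identifiers, each standing for 1 captured RNA molecule). The libraries shared 15 cell barcodes, of which 1 was in the Control NK gate. Cells were assigned by gates, which are rules on marker genes that use no Klr gene. A limit on macrophage transcripts was applied to all gates but that of macrophages, set at 20% of the median of macrophage-gated cells in the same library, which was 3767 CPM in Control and 883 CPM in TTS. The NK gate held 429 Control and 26 TTS cells, the T gate 234 and 39, the group 2 innate lymphoid cell (ILC2) gate 166 and 97, and the 4 dendritic cell (DC) gates together 99 and 308. The macrophage gate held 1027 and 3191 cells. Levels are in CPM, the UMIs of a gene over 1000000 UMIs of the gated cells, and they are not scaled by transcript length because each molecule is counted at its 3′ end.

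**Figure D1:**
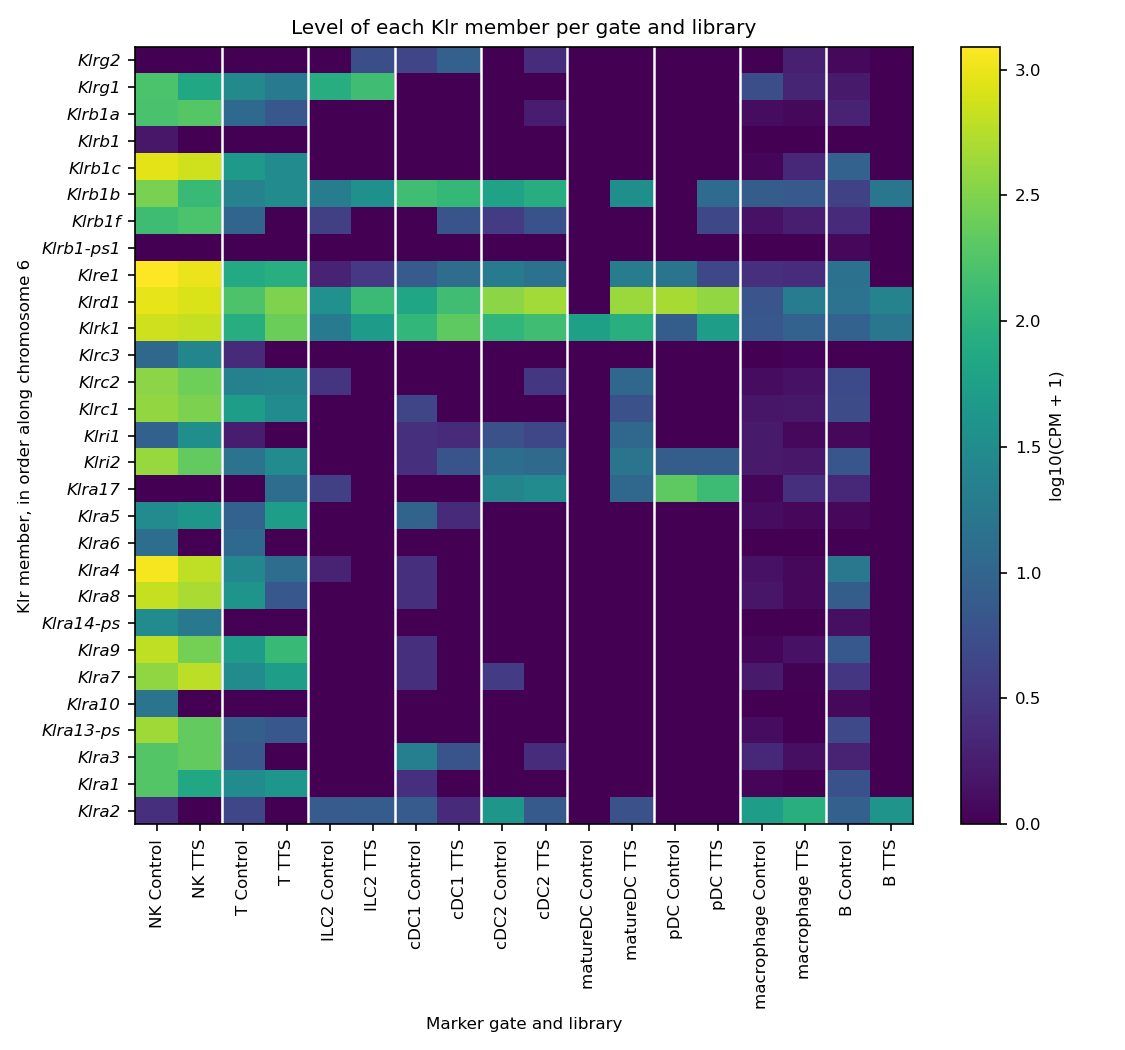
Level of each Klr member, as log10 of CPM plus 1, in order along chromosome 6 (rows), per marker gate and library (columns). Most members are brightest in the NK columns and dimmer in the T columns. Klrd1 and Klrk1 are also bright in the T and dendritic cell columns, and Klrg1 in those of ILC2. Klrb1b is also bright in the cDC1 and cDC2 columns, Klra17 in those of plasmacytoid dendritic cells (pDC) and Klra2 in those of macrophages.

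By gate, most Klr UMIs of the Control library were in NK cells, while in the TTS library the DC and macrophage gates each held more than the NK gate. Of 25993 Klr UMIs in kept Control cells, 63.2% were in the NK gate, 2.23% in the DC gates and 2.37% in the macrophage gate. Of 12388 in kept TTS cells, 6.83% were in the NK gate, 13.9% in the DC gates and 32.1% in the macrophage gate. The NK gate held 7.61% of kept Control cells and 0.48% of kept TTS cells, a log2 ratio of -3.97 (interval -4.53 to -3.40). With no macrophage limit this ratio was -2.65, and with the Control limit in both libraries it was -3.15. In captured cells, fewer NK cells in the heart and a larger number of other cells cannot be told apart. Ungated cells held 24.7% and 44.2% of the Klr UMIs. The gates on NK markers also passed over 42 Control and 46 TTS barcodes that exceeded the macrophage limit, and these had summed Klr levels of 2717 and 1776 CPM. They were 8.92% of the Control and 63.9% of the TTS barcodes that met the NK markers. Ungated barcodes with NK markers held 9.11% of the Control and 10.9% of the TTS Klr UMIs. The macrophage gate held 62.8% of the 4225 Klra2 UMIs of kept TTS cells, so most of its 3972 Klr UMIs were of Klra2.

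In NK cells, 26 members had a UMI and 23 had at least 20 UMIs over both libraries. The members with the most UMIs in Control NK-gated cells were Klre1, the partner chain of the Klri receptors, at 1229 CPM (interval 1178 to 1282), and the activating receptor Klra4 at 1102 CPM (1053 to 1152). Klrd1 followed at 934 CPM (889 to 980) and Klrb1c, which encodes the NK1.1 antigen of C57BL6 mice, at 919 CPM (874 to 965). The intervals of these last overlapped, as did those of no other neighbours among the first 6, which ended with Klrk1 at 743 CPM (704 to 785) and Klra8 at 664 CPM (626 to 703). Together these 6 held 59.5% of the Klr UMIs of the gate. Among inhibitory members, Klra9 (Ly49I) was highest at 621 CPM, followed by Klrc1 at 385 CPM, Klra7 (Ly49G) at 374 CPM, Klrb1b at 294 CPM, and Klra1 (Ly49A) and Klra3 (Ly49C) both at 184 CPM. The maturation-linked receptor Klrg1 was at 164 CPM. The pseudogene Klra13-ps was at 445 CPM, above the inhibitory members other than Klra9. Klra5, Klra6, Klra10, Klra14-ps and Klrc3 were at 30 CPM or below.

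After thinning each cell to 1000 UMIs, 68.9% of Control NK-gated cells had a UMI of Klre1, 61.9% of Klrd1 and 59.1% of Klrb1c. Without thinning, the shares were 96.7%, 93.0% and 92.5%. In Control B-gated cells, which should lack these receptors, 0.76% had a Klrd1 UMI and 0.23% a Klrb1c UMI after thinning. The median depths were 3645 UMIs in the NK gate and 3510 UMIs in the B gate. The share of cells with a UMI of Klra4 was 40.6% after thinning and 52.4% without, and for Klrg1 14.7% and 38.2%.

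Against T cells, NK cells had higher levels of nearly the whole family. Of 22 members with at least 20 UMIs over both Control gates, 21 were at least 2-fold higher in NK cells, beside 11.5% of all genes, with a median log2 ratio of 3.86 (3.76 with genes at 0 set to their bound), against 0.21 over all genes, and none was lower, beside 8.59%. In TTS, all 14 members measured were at least 2-fold higher in NK cells, beside 9.71% of all genes, and none was lower, beside 9.46%. The exception in Control was Klra6, an inhibitory Ly49, at 12.0 CPM in NK cells and 10.5 CPM in T cells, a log2 ratio of 0.19 (-0.76 to 1.13). The smallest differences among the others were those of Klra5 at 1.79, Klrd1 at 2.49, Klrg1 at 2.57, Klra1 at 2.60 and Klrc1 at 2.85.

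NK cells of the TTS library had a lower summed Klr level. Control cells had 9403 CPM (9260 to 9548), TTS cells 7165 CPM (6690 to 7665), a log2 ratio of -0.39 (-0.49 to -0.29). Of the 23 members measured, 1 was at least 2-fold higher, beside 8.74% of all genes, and 6 were at least 2-fold lower, beside 16.8%, so that 7 were past 2-fold in either direction, beside 25.5%. Of the 6 lower members, Klra10 and Klra6 had no TTS UMI. With both set to the level that a count of 0 allows, 4 were lower. The count of 7 became 22 with no macrophage limit, 16 with the Control limit in both libraries, and 4 after thinning or with a minimum of 50 UMIs. The median log2 ratio of the 23 members was -0.40, against -0.07 over all 7793 genes. It was -0.31 with Klra10 and Klra6 at that level, which is an upper limit for TTS. Only 26 TTS cells were gated, so several of these values rest on a few cells.

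Among the 6 lower members, 4 were read in both libraries. Klra1 was at 184 CPM in Control and 67.8 CPM in TTS, a log2 ratio of -1.35 (-2.34 to -0.37), and its 8 TTS UMIs came from 2 cells. Klrb1b, the inhibitory NKR-P1B, was at 294 and 119 CPM, a ratio of -1.26 (-2.02 to -0.51). Klrg1 was at 164 and 67.8 CPM, a ratio of -1.19 (-2.17 to -0.20), and Klra9 was at 621 and 279 CPM, a ratio of -1.13 (-1.63 to -0.64). These 4 are inhibitory receptors, and their intervals did not reach 0. The other lower members, Klra10 and Klra6, had 25 and 21 UMIs in Control and none in TTS, where a count of 0 allows up to 25.4 CPM, more than their Control levels of 14.3 and 12.0 CPM, so that no difference was detectable at this depth. The higher member, Klrc3 (NKG2E), rested on 3 TTS UMIs, with a ratio of 1.57 (-0.09 to 3.22).

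Inhibitory members did not move together. Klra7 was at 374 CPM in Control and 610 CPM in TTS, a log2 ratio of 0.71 (0.36 to 1.06), and it was the only member measured in NK cells whose interval lay above 0. Klra3 was at 184 and 220 CPM, a ratio of 0.29 (-0.28 to 0.86), unlike the near-identical Klra9. Among activating members, Klra4 was at 1102 and 627 CPM, a ratio of -0.80 (-1.14 to -0.47), and Klri2 was at 406 and 220 CPM, a ratio of -0.86 (-1.42 to -0.30). Klra8 was at 664 and 500 CPM, a ratio of -0.40 (-0.77 to -0.02). Klrk1 was at 743 and 652 CPM, and its interval of -0.51 to 0.15 held 0, as did those of Klrc1, Klrc2, Klrd1, Klrb1a and Klrb1f.

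The shares of the classes differed between the libraries by less than their counting intervals. Activating members made up 66.5% (65.7 to 67.4) of the activating and inhibitory UMIs in Control and 65.7% (61.7 to 69.5) in TTS. The summed log2 ratio was -0.42 (-0.57 to -0.28) for activating members, -0.37 (-0.57 to -0.17) for inhibitory members and -0.25 (-0.44 to -0.05) for the partner chains. By gene group, it was -0.50 (-0.67 to -0.34) for the Klra genes, -0.32 (-0.56 to -0.08) for the Klrb1 genes and -0.24 (-0.42 to -0.05) for the Klrc genes with Klrd1 and Klrk1.

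Transcripts of mature dendritic cells, such as Ccr7 and Fscn1, were at 923 CPM in the TTS NK gate and 28.6 CPM in the Control NK gate. Without the 1 Control and 2 TTS barcodes over 1000 CPM of that list, the summed Klr log2 ratio was -0.26 (-0.36 to -0.16). With no limit on macrophage transcripts, 471 and 72 cells were gated and the ratio was -1.60 (-1.67 to -1.54). With the Control limit in both libraries, 46 TTS cells were gated and it was -1.15 (-1.23 to -1.07).

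**Figure D2:**
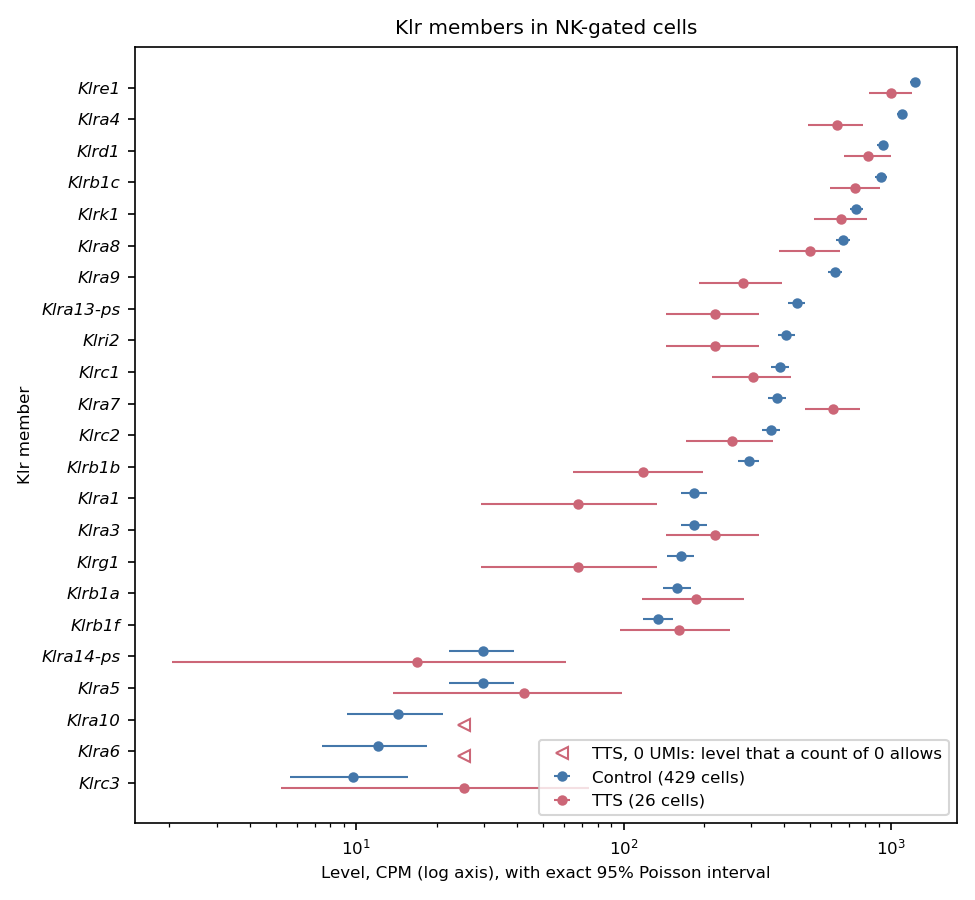
Level in CPM (log axis) of the 23 Klr members with at least 20 UMIs in NK-gated cells of the Control library (429 cells) and the TTS library (26 cells), with exact 95% Poisson intervals, and open triangles for the level that a count of 0 allows. Klra1, Klrb1b, Klrg1 and Klra9 lie lower in TTS by at least 2-fold, and Klra7 lies higher at 610 against 374 CPM.

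NK cells were split by maturity with marker lists that hold no Klr gene. The mature list was Itgam, Zeb2, S1pr5, Cma1, Gzmb, Cx3cr1 and Prdm1, and the immature list Cd27, Ltb, Tcf7, Ctla2a, Emb, Cd7 and Xcl1. A cell was called by the list with more summed UMIs, so abundant genes weigh most. In Control NK cells, Gzmb had 2471 UMIs and S1pr5 383. In Control and TTS NK cells, Gzmb was at 1414 and 1923 CPM and Xcl1 at 682 and 1524 CPM. Their part in the split was not tested. In Control, 324 cells were mature and 97 immature, and in TTS 12 and 14. The summed Klr level was 10253 CPM in mature and 7249 CPM in immature Control cells, and 9320 and 5331 CPM in TTS. The log2 ratio of TTS over Control was thus -0.14 (-0.26 to -0.01) among mature and -0.44 (-0.60 to -0.28) among immature cells.

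Most members had higher levels in mature Control NK cells. Of 22 members measured, 3 were at least 2-fold higher in mature cells, beside 4.29% of all genes, and 1 was at least 2-fold lower, beside 3.58%. The ratio was above 0 for 19 of the 22, with a median log2 ratio of 0.49 against 0.06 over all genes. Klrg1, which marks terminal maturation of NK cells, differed most, at 215 CPM (189 to 242) in mature and 50.1 CPM (32.4 to 74.0) in immature cells, a log2 ratio of 2.07 (1.49 to 2.66). Klra1 was at 214 and 100 CPM, a ratio of 1.08 (0.65 to 1.52). Klra6 was the third, with 18 and 3 UMIs, and its ratio of 1.12 had an interval of -0.53 to 2.76.

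The ratio was below 0 for 3 members in Control. Klra5 (Ly49E) was at 22.2 CPM in mature and 50.1 CPM in immature cells, a log2 ratio of -1.18 (-1.95 to -0.40), and Klrc1 was at 359 and 453 CPM, a ratio of -0.34 (-0.57 to -0.10), both inhibitory. The third, the activating Klrb1f, had a ratio of -0.26 (-0.66 to 0.14). Klrc2, the activating counterpart of Klrc1, was at 409 and 231 CPM, a ratio of 0.82 (0.53 to 1.11). Klrk1 and Klra7 were close to even, at 0.13 (-0.05 to 0.31) and 0.09 (-0.16 to 0.34). Over the Klra genes as a sum, the ratio was 0.51 (0.43 to 0.60).

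In TTS, 14 members could be compared between the 12 mature and 14 immature cells, of which 5 were at least 2-fold higher in mature cells, beside 7.34% of all genes, and 1 was lower, beside 7.99%. Klrc1 was again lower in mature cells, at 166 and 423 CPM, a log2 ratio of -1.30 (-2.37 to -0.24), and Klrc2 was higher, at 424 and 110 CPM, a ratio of 1.88 (0.69 to 3.07). Klra4 was at 1216 CPM in mature and 125 CPM in immature TTS cells, a ratio of 3.20 (2.17 to 4.23), while its Control levels were 1195 and 854 CPM. The pseudogene Klra13-ps, at 442 and 31.4 CPM, had a ratio of 3.53 (1.65 to 5.40) in TTS.

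**Figure D3:**
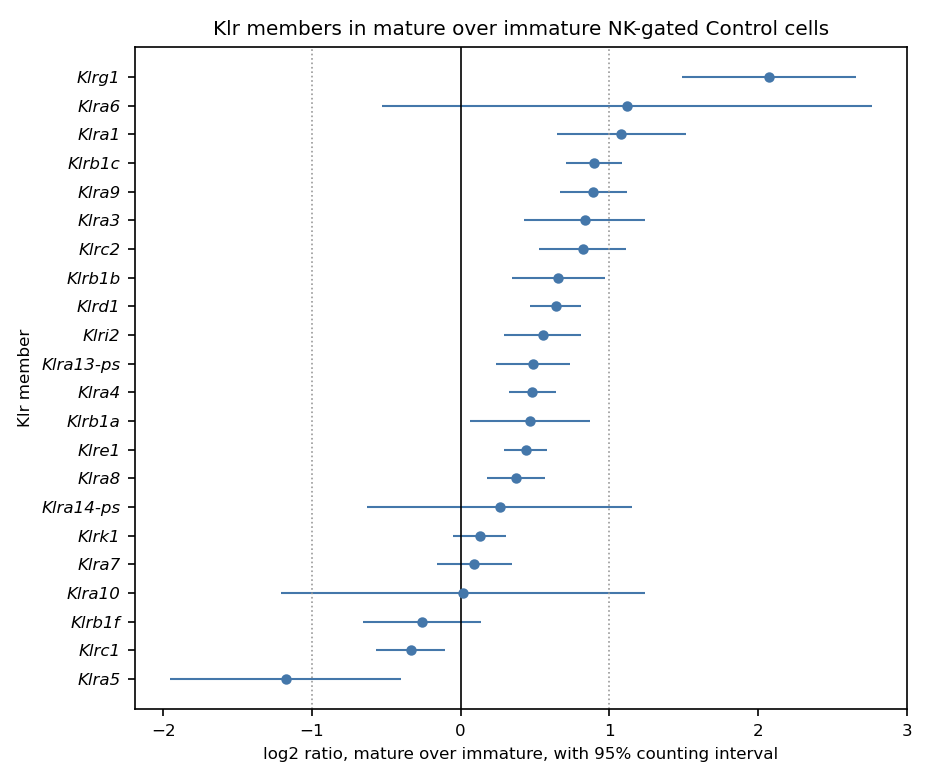
Log2 ratio of the level in mature over immature NK-gated Control cells (x axis) for the 22 Klr members with at least 20 UMIs (y axis), with 95% counting intervals and dotted lines at a 2-fold difference. Klrg1 stands at 2.07, and Klra5 and Klrc1 lie below 0 with intervals that do not reach it.

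The number of Ly49 receptors read in a single NK cell depended on depth. After thinning to 1000 UMIs, a Control NK-gated cell had UMIs of 1.70 of 9 Klra members on average (without Klra2, Klra17 and the pseudogenes), and a TTS cell of 1.19. At least 1 was read in 86.0% (82.3 to 89.1) of Control and 73.1% (52.2 to 88.4) of TTS cells, and at least 2 in 53.5% (48.7 to 58.3) and 38.5% (20.2 to 59.4). The intervals of the libraries overlapped for both shares. At 2000 UMIs the means were 2.32 and 1.77, and at least 2 were read in 73.2% and 57.7% of cells. Among Control cells, mature cells had 1.83 on average and immature cells 1.28, and at least 1 was read in 90.1% and 72.2% of them. In B-gated Control cells, at least 1 was read in 1.22%.

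Some members were read in the same Control NK cell less often than independent detection would give. Thinned to 1000 UMIs, Klrc1 and Klrc2 were read together in 11 of 428 cells, where independent detection would give 31.1, a ratio of 0.35. Klra4 and Klrc1 were read together in 17 cells against 42.3, a ratio of 0.40. Without thinning, these pairs were read together in 78 and 50 of 429 cells, against 119 and 96.0. Their ratios were then 0.65 and 0.52, and the ratio for Klra1 and Klra3 was 0.52 (0.64 thinned, with 4 cells against 6.30). In the other direction, Klra4 and the pseudogene Klra13-ps were read together in 79 cells against 55.7, a ratio of 1.42 thinned and 1.33 unthinned. Over the 153 pairs with at least 40 thinned cells each, the median ratio was 1.05, with 16 pairs under 0.8 and 28 over 1.2. These ratios describe the cells of 1 library, which share their depth and handling, and were not tested.

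In T cells, the summed Klr level was 742 CPM (698 to 788) for Control against 1114 CPM (961 to 1285) for TTS, a log2 ratio of 0.59 (0.37 to 0.81). The T gate requires CD3 UMIs and sets no limit on NK markers. It can thus hold conventional, γδ and NKT cells, and NK cells or doublets with CD3 UMIs. NK gate markers summed to 1560 CPM in Control T cells and 954 CPM in TTS T cells. The effector list used below holds Nkg7, which is also an NK gate marker. Klr transcripts were mostly in CD3+ cells with neither Cd4 nor Cd8 UMIs, at 1292 CPM in 95 Control cells and 1432 CPM in 25 TTS cells. Control cells with Cd8a or Cd8b1 UMIs were at 477 CPM and those with Cd4 UMIs at 161 CPM.

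Of 15 members measured in T cells, 4 were at least 2-fold higher in TTS, beside 9.52% of all genes, and 1 was lower, beside 10.9%. Klrk1 had 83.0 CPM (68.7 to 99.3) in Control T cells against 249 CPM (179 to 336) for TTS, a log2 ratio of 1.6 (1.09 to 2.10), read in 40 of 234 and 13 of 39 cells. Klra9 was at 49.5 and 119 CPM, a ratio of 1.28 (0.58 to 1.99), but its 20 TTS UMIs came from 4 cells. Klra5 was at 8.37 and 53.3 CPM, a ratio of 2.69 (1.47 to 3.91), from 2 Control and 3 TTS cells. Klri2 had a ratio of 1.19 (-0.17 to 2.55), and the lower member, Klra8, with 1 TTS UMI, had a ratio of -2.12 (-4.46 to 0.22). Klrd1 was at 166 and 308 CPM, a ratio of 0.90 (0.47 to 1.34).

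The share of effector cells differed between the libraries, and most Klr genes had few UMIs in naive cells, Klrd1 excepted. By lists that hold no Klr gene, 97 Control T cells were effector (Nkg7, Ccl5, Cxcr6 and others) and 135 naive (Lef1, Ccr7, Tcf7 and others), while 32 TTS cells were effector and 7 naive. Control effector cells had 1399 CPM of Klr transcripts and naive cells 112 CPM. All 14 members measured in this Control comparison were at least 2-fold higher in effector cells, beside 13.2% of all genes, and none was lower, beside 4.96%. Klre1 was at 159 CPM in effector cells with no UMI in naive cells, at least 37.8-fold higher against a floor of 3 UMIs over the naive cells. Klrd1 differed least, at 240 and 91.0 CPM, a log2 ratio of 1.39 (0.98 to 1.81), and it was read in 44 of 135 naive cells. Among effector cells alone, the summed level was 1399 CPM in Control and 1266 CPM in TTS, so the ratio turned to -0.14 (-0.37 to 0.09). Of 15 members measured among effector cells, 1, Klra5, was at least 2-fold higher in TTS, beside 6.49% of all genes, and 5 were lower, beside 10.5%. Klrk1 was at 166 and 292 CPM there, a ratio of 0.83 (0.32 to 1.33) that is under 2-fold, and was read in 37 of 97 and 13 of 32 cells. Klra9 was at 102 and 139 CPM, a ratio of 0.48 (-0.23 to 1.19). The 5 lower members were Klra8, Klra4, Klrc1, Klrb1c and Klrg1, with 1 to 5 TTS UMIs each. The family's ratio over the T gate was also below 0 with no macrophage limit, at -0.12 (-0.22 to -0.01), and with the Control limit in both libraries, at -0.56 (-0.70 to -0.41).

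Part of the T and ILC2 gates had transcripts of antigen-presenting cells. Barcodes with over 5000 CPM of the MHC class II genes H2-Aa, H2-Ab1 and Cd74, a limit chosen after the data were seen, numbered 18 of 234 Control and 4 of 39 TTS barcodes in the T gate, 13 of 166 and 13 of 97 in the ILC2 gate, and 6 of 429 and 2 of 26 in the NK gate. In the T gate, the 4 TTS barcodes held 31 of the 52 Klrd1 UMIs. Without such barcodes, Klrd1 was at 174 CPM in Control and 158 CPM in TTS T cells, a log2 ratio of -0.11 (-0.75 to 0.53), whereas Klrk1 was at 89.3 and 248 CPM, a ratio of 1.49 (0.93 to 2.05). Doublets and cells of another type that express CD3 cannot be told apart here.

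In the ILC2 gate, the summed Klr level was 172 CPM (148 to 199) for Control against 363 CPM (308 to 424) for TTS, a log2 ratio of 1.07 (0.77 to 1.38). Of 4 members measured, 2 were at least 2-fold higher in TTS, Klrd1 and Klrk1, beside 7.41% of all genes, and none was lower, beside 7.62%. Klrd1 was at 35.8 and 128 CPM, a ratio of 1.83 (1.23 to 2.42), and Klrk1 at 18.4 and 50.2 CPM, a ratio of 1.44 (0.57 to 2.32). Both were largely in the MHC class II-high barcodes. These held 35 of 37 Control and 55 of 56 TTS UMIs of Klrd1, and 15 of 19 and 20 of 22 UMIs of Klrk1. Gata3, the defining factor of ILC2s, was read in 4 of 13 Control and 2 of 13 TTS barcodes of this kind, and the DC gene Cd209a in 10 and 8. Of the other barcodes, 148 of 153 and 82 of 84 had Gata3, which is 1 of the 8 markers of the gate.

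Klrg1, a marker of ILC2s and of terminally differentiated lymphocytes, had the opposite distribution. It was read in 53 of 153 Control and 30 of 84 TTS barcodes below the MHC class II limit and in 0 of 13 and 1 of 13 above it. In the barcodes below the limit, Klrg1 was at 94.7 CPM in Control and 194 CPM in TTS, a log2 ratio of 1.04 (0.56 to 1.52), while over the whole gate it was at 82.2 and 137 CPM, a ratio of 0.74 (0.26 to 1.21). The shares of whole-gate cells with a Klrg1 UMI were 31.9% and 32.0% unthinned, at median depths of 5738 and 3540 UMIs, and 4.22% and 10.3% after thinning to 1000 UMIs. In Control B-gated cells, 0.30% had one unthinned. Below the limit, the summed Klr log2 ratio was 0.76 (0.32 to 1.19), and Klrg1 made up 85 of 114 Control and 59 of 65 TTS Klr UMIs.

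**Figure D4:**
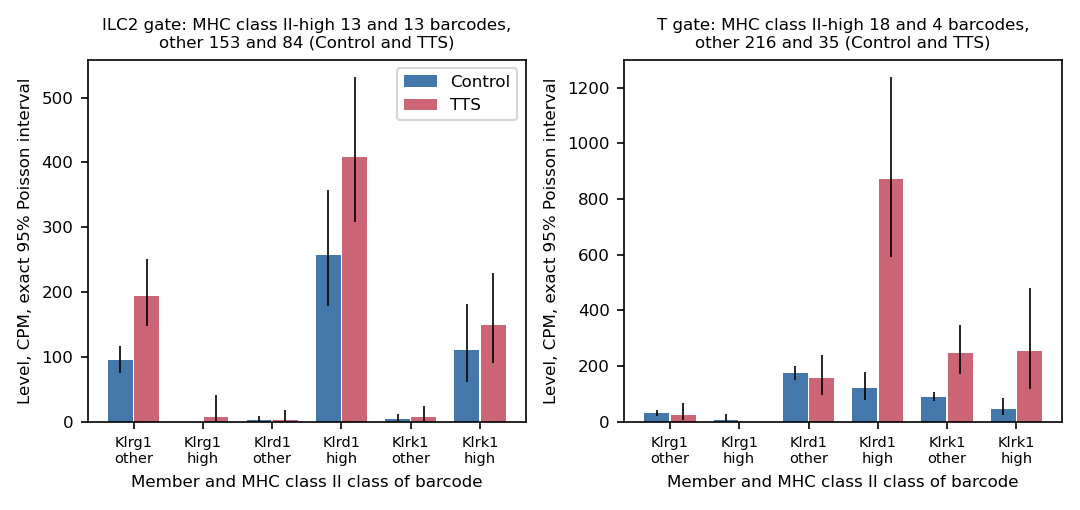
Level in CPM, with exact 95% Poisson intervals, of Klrg1, Klrd1 and Klrk1 in barcodes of the ILC2 gate (left) and T gate (right), split into those over 5000 CPM of MHC class II transcripts (high) and the others, for the Control and TTS libraries. In the ILC2 gate, Klrg1 is in the other barcodes, at 94.7 and 194 CPM, and Klrd1 in the high barcodes, at 257 and 409 CPM.

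Dendritic cells expressed a small set of Klr genes that differed between their subsets. The gates were those of conventional DCs of type 1 (cDC1, 44 Control and 71 TTS cells) and type 2 (cDC2, 37 and 166), mature DCs (3 and 24) and pDCs (15 and 47). The summed level over all 4 gates was 503 CPM (463 to 546) for Control against 653 CPM (623 to 685) for TTS. The log2 ratio was 0.38 (0.24 to 0.51), and without Klrd1 it was 0.07 (-0.12 to 0.26). This pooled ratio also depends on the mix of subsets, which differed between the libraries. By subset, the summed ratio was 0.41 (0.17 to 0.65) in cDC1s, 0.25 (0.05 to 0.45) in cDC2s and -0.27 (-0.63 to 0.09) in pDCs. Of 7 members measured, none was at least 2-fold higher in TTS, beside 6.13% of all genes, and 1, Klra2, was lower, beside 8.28%. The NK receptor genes Klrb1c and Klrg1 had no UMI in the cDC1, cDC2 and pDC gates of either library. Other members of NK cells were read there. The cDC2 gate held 0.24% of the Klre1 UMIs of kept Control cells and 3.88% of those of TTS cells. For Klri2 these shares were 0.54% and 9.93%. Such shares are not levels, because they depend on the number of cells in each gate. The NK gate held 429 Control and 26 TTS cells, and the cDC2 gate 37 and 166. Kept cells had 2950 Control and 490 TTS UMIs of Klre1, and 925 and 151 of Klri2. The larger TTS shares thus do not show a higher level in TTS cDC2s.

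Klrd1 was the leading member in cDC2s and pDCs. Among cDC2s, its level was 360 CPM (304 to 423) for Control against 456 CPM (421 to 493) for TTS. Among pDCs, it was 482 CPM (374 to 613) against 392 CPM (321 to 473). In 24 TTS mature DCs it was at 423 CPM (339 to 522). In cDC1s its levels of 66.3 CPM (47.2 to 90.7) for Control, then 139 CPM (114 to 169) for TTS, were lower than in cDC2s. The cDC1 log2 ratio was 1.06 (0.53 to 1.59), and Klrd1 was the 1 of 3 members measured in cDC1s that was at least 2-fold higher, beside 9.58% of all genes, with none lower, beside 8.38%. Its ratio was 0.34 (0.08 to 0.60) in cDC2s and -0.30 (-0.74 to 0.13) in pDCs. Thinned to 1000 UMIs, 24.3% of Control and 27.1% of TTS cDC2s had a Klrd1 UMI, at median depths of 11160 and 7925 UMIs, against 0.76% of Control B-gated cells. Unthinned, the shares were 67.6% and 72.9%.

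Its partners in NK cells were nearly missing from cDC2s. The cDC2 gates held 147 Control and 634 TTS UMIs of Klrd1, no UMI of Klrc1, and 3 UMIs of Klrc2, all in TTS. Klrk1 had levels of 111 CPM (85.3 to 141) for Control against 209 CPM (178 to 244) for TTS cDC1s, a log2 ratio of 0.91 (0.50 to 1.33). In cDC2s it was at 108 and 139 CPM, a ratio of 0.35 (-0.12 to 0.82). Klrb1b was at 138 and 112 CPM in cDC1s and at 58.8 and 82.7 CPM in cDC2s, and its intervals between the libraries held 0 in both.

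Of 7 members measured in cDC2s, none was at least 2-fold higher in TTS, beside 8.08% of all genes, and 1, Klra2, was lower, beside 9.85%. Of 2 measured in pDCs, Klrd1 and Klra17, none was past 2-fold, beside 9.03% higher and 6.34% lower.

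The subsets differed in which members they carried. Of 4 members measured between the Control gates, 2 were at least 2-fold higher in cDC2s than in cDC1s (Klrd1 at 2.43 and Klra2 at 2.49), beside 13.3% of all genes, and 1 was lower (Klrb1b at -1.21, -1.86 to -0.56), beside 6.17%. The Klra2 value rests on few UMIs of few cells, as given below. Macrophage transcripts were at 364 CPM in Control cDC1s and 683 CPM in Control cDC2s. In TTS, 2 of 5 members were higher in cDC2s, beside 11.1%, and none was lower, beside 5.14%. These were Klrd1 at 1.70 (1.41 to 1.999) and Klra17, which had 42 UMIs in cDC2s and none in cDC1s, at least 7.65-fold higher against a floor of 3 UMIs. Klra17 was highest in pDCs, with 209 CPM (140 to 300) for Control against 131 CPM (91.4 to 181) for TTS, a log2 ratio of -0.68 (-1.38 to 0.02). No pDC of either library had a Klra2 UMI, and no cDC1 a Klra17 UMI, while both genes were read in cDC2s. The pDC gates held 138907 Control and 275768 TTS UMIs of all genes. A Klra2 count of 0 there does not exclude a level as low as that of TTS cDC2s, given below.

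**Figure D5:**
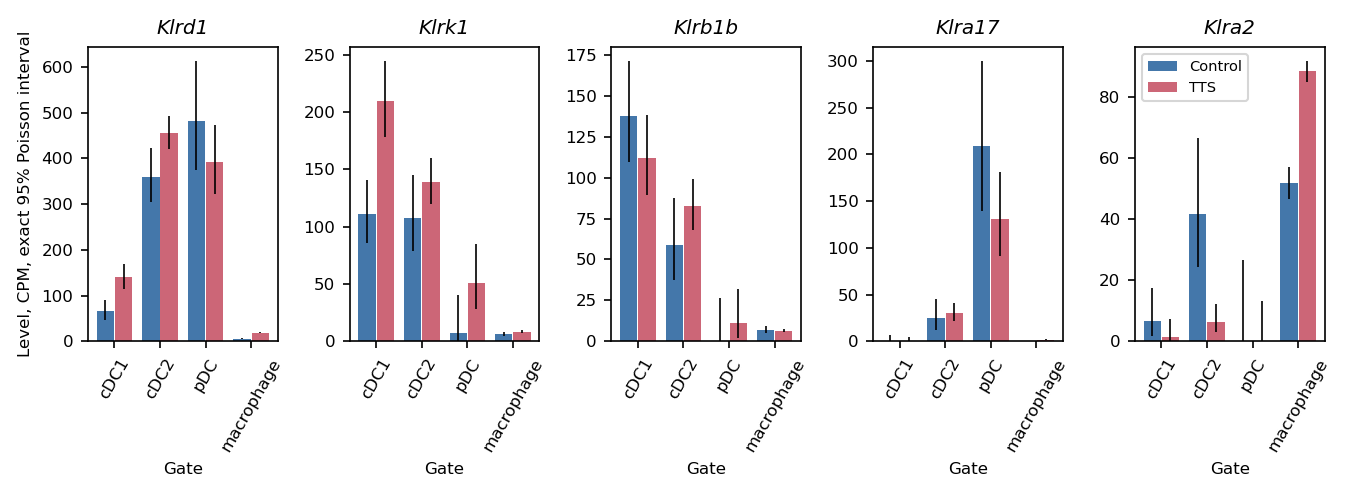
Level in CPM, with exact 95% Poisson intervals, of Klrd1, Klrk1, Klrb1b, Klra17 and Klra2 in the cDC1, cDC2, pDC and macrophage gates of the Control and TTS libraries, with a separate y axis for each gene. Klrd1 is highest in cDC2s and pDCs, Klrk1 and Klrb1b in conventional DCs, Klra17 in pDCs at 209 and 131 CPM, and Klra2 in the macrophage gate of TTS at 88.5 CPM.

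Klra2, an inhibitory Ly49 of myeloid cells, was the member with the most UMIs in the macrophage gate. Its level was 51.8 CPM (46.8 to 57.3) in Control against 88.5 CPM (85.2 to 91.9) in TTS, a log2 ratio of 0.77 (0.62 to 0.92). The median of all 13099 genes in this gate was -0.32. A Klra2 UMI was read in 20.8% of Control and 43.7% of TTS macrophage-gated cells, at median depths of 6398 and 8259 UMIs. After thinning to 1000 UMIs, the shares were 4.97% and 8.62%. In Control B-gated cells they were 1.98% unthinned and 0.38% thinned. The Control B gate held 3.56% of 1263 Klra2 UMIs of kept cells, over 5813882 UMIs of all genes. The TTS B gate, of 29 cells, held 0.12% of 4225, over 129176. Klra2 was thus also higher in B-gated cells of TTS, from few UMIs. The part of such background in the macrophage values was not tested. In cDC2s, Klra2 was at 41.6 CPM in Control, from 17 UMIs of 4 cells, and 6.47 CPM in TTS, a ratio of -2.65 (-3.79 to -1.51), and macrophage transcripts there were at 683 and 475 CPM. Their part in the cDC2 value was not tested.

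Of 12 members measured in the macrophage gate, 4 were at least 2-fold higher in TTS, beside 8.67% of all genes, and 1 was lower, beside 24.4%. Klrd1 was at 5.53 and 18.8 CPM, a log2 ratio of 1.75 (1.29 to 2.20), and its 564 TTS UMIs came from 154 of 3191 cells. Klra17 and Klrb1c had 1 Control UMI each and ratios of 3.00 (0.65 to 5.34) and 2.7 (0.35 to 5.05). Klrg2, a gene outside the NK gene complex, had 26 TTS UMIs and none in Control, at least 2.14-fold higher against a floor of 3 UMIs. Klrg1 was lower, at 4.45 and 1.10 CPM, a ratio of -2.02 (-2.71 to -1.33). In Control, the B gate held 2.55% of the Klrd1 UMIs over 5813882 UMIs of all genes. The macrophage gate held 1.29% over 7408090. For Klrb1c these shares were 2.30% and 0.047%. Control levels of both genes were thus higher in B-gated cells, which should lack them. The TTS B gate held only 12 Klr UMIs. The part of such background in the macrophage values was not tested.

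Of the adaptors through which activating receptors signal, DAP12, DAP10 and Fcer1g were within 2-fold in NK cells. Of 16 listed adaptors and signalling proteins, 15 were measured in the NK gate, with 1 at least 2-fold higher, beside 8.74% of all genes, and 2 lower, beside 16.8%. DAP12 (Tyrobp) was at 2476 CPM in Control and 2168 CPM in TTS, a ratio of -0.19 (-0.37 to -0.01), and DAP10 (Hcst), the adaptor of NKG2D, was at 514 and 491 CPM, a ratio of -0.05 (-0.44 to 0.33). Fcer1g, an adaptor of activating NK receptors, was at 2367 and 2346 CPM. The phosphatase SHP-1 (Ptpn6), which inhibitory receptors recruit, was at 125 and 296 CPM, a ratio of 1.26 (0.75 to 1.77). The kinase Syk was at 124 and 25.4 CPM, with 3 TTS UMIs, a ratio of -2.07 (-3.59 to -0.55). SHIP1 (Inpp5d), an inositol phosphatase of inhibitory signalling, was at 230 and 110 CPM, a ratio of -1.01 (-1.79 to -0.22). In T cells 1 of 14 adaptors was higher, beside 9.52% of all genes. In the DC gates none of 11 was past 2-fold, beside 6.13% higher and 8.28% lower. In the ILC2 gate 5 of 12 were higher, beside 7.41%, among them Tyrobp at 281 and 750 CPM and Fcer1g at 268 and 593 CPM. In B-gated cells Tyrobp was at 250 and 1107 CPM and Fcer1g at 179 and 534 CPM, and 13 of 166 Control and 13 of 97 TTS barcodes of the ILC2 gate were MHC class II-high. Their part in the ILC2 values was not tested.

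Ligands of the receptors were compared in macrophages, the gate with the most UMIs in both libraries. Of 20 listed ligands, 15 are in the files and 9 were measured in the macrophage gate, with 3 at least 2-fold higher in TTS, beside 8.67% of all genes, and 2 lower, beside 24.4%. Raet1e, a RAE-1 ligand of NKG2D, had 287 UMIs (9.57 CPM) in TTS and none in Control, at least 23.6-fold higher against a floor of 3 UMIs. Raet1d, another RAE-1 gene that is named here after its values were seen, had 25 TTS UMIs and none in Control, at least 2.06-fold higher. The cadherin Cdh1, a ligand of KLRG1, was at 0.27 CPM, from 2 UMIs, and 15.1 CPM, a log2 ratio of 5.48 (3.69 to 7.28). H60b, also a ligand of NKG2D, was lower, at 8.23 and 1.6 CPM, a ratio of -2.36 (-2.90 to -1.82). H2-T23, which encodes Qa-1, was at 213 and 89.6 CPM, a ratio of -1.25 (-1.34 to -1.16), and the Ly49 ligands H2-K1 and H2-D1 had ratios of -0.89 (-0.93 to -0.86) and -0.50 (-0.52 to -0.48). Clec2d, a ligand of NKR-P1B, was at 237 and 126 CPM, a ratio of -0.91 (-0.995 to -0.832).

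In the DC gates, 1 of 6 measured ligands was at least 2-fold higher in TTS, beside 6.13% of all genes, and none was lower, beside 8.28%. The higher one was Cdh1, at 22.6 and 46.3 CPM, and H2-T23 had a ratio of -0.32 (-0.50 to -0.13). In NK cells, none of 6 was at least 2-fold higher, beside 8.74% of all genes, and 1, H60b, was lower, beside 16.8%. It had 71 Control UMIs and 1 TTS UMI, a ratio of -1.69 (-4.02 to 0.65).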

How the data were processed

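scRNA-Seq libraries of CD45+ heart cells were made with the 10x Genomics 3′ kit, with 1 library per group. The deposited values are counts of UMIs per gene and barcode, without normalization. The authors extracted barcodes with UMI-tools 1.0.0 after bcl2fastq 2.19.1.403, aligned reads to mm10 with STAR 2.7.3a and counted with featureCounts 1.6.4 of Subread. The annotation and strand setting of the counting are not given in the sources used here. The deposited counts include barcodes outside the cell filters.

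Barcodes entered if they had over 500 and below 6000 genes, the limits of the study's methods, with mitochondrial UMIs below 25%. Doublets were not called. Gates required at least 3 of 8 NK markers, 2 CD3 UMIs (at most 1 in other gates), 2 of 8 ILC2 markers, 2 cDC1 markers or 3 markers of another DC subset, or 5 macrophage markers. Counts were summed per gate and library, and 0.5 UMI was added for log2 ratios of genes with at least 20 UMIs over both groups. Members with at least 20 UMIs in a gate were named, which left out Klri1, Klrb1 and Klrb1-ps1, as were adaptors with at least 100 UMIs in the NK gate and ligands with at least 100 UMIs in any gate. With 1 library per group no test was made. CPM have exact Poisson and shares exact Clopper-Pearson intervals at 95%, both for counting error only. Folds against 0 use a floor of 3 UMIs over the gate. Cells were thinned to 1000 UMIs for shares. Positions came from GENCODE release M21. The ratio step was checked on simulated counts. Alternatives covered the macrophage limit, gate strictness, cell filters, thinning, totals, the added UMI, the UMI minimum and the genes summed. The members, gene lists and gates were chosen with earlier results of these data known. Scripts ran in Python 3.11.15 (scipy 1.17.1, numpy 2.4.6, matplotlib 3.10.9, pandas 2.3.3).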

Additional observations from a re-analysis of the deposited data

Results flagged for a closer look

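Members whose difference between the libraries had opposite signs in separate gates, with counting intervals that did not reach 0, are listed here. The difference between the gates was not tested.

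Klra9 had a log2 ratio of TTS over Control of -1.13 in the NK gate and 1.28 in the T gate, where its TTS UMIs came from 4 cells. Among effector T cells alone, the ratio was 0.48 with an interval of -0.23 to 1.19, so that the opposite sign is not clear of counting error there. Klrg1 had a ratio of -1.19 in the NK gate, 0.74 in the ILC2 gate and -2.02 in the macrophage gate. Klra2 had a ratio of -2.65 in the cDC2 gate, where its Control UMIs came from 4 cells, and 0.77 in the macrophage gate.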

How the results depend on the processing

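No paired analysis was possible because each group has 1 library. Some TTS gates hold few cells, and no alternative replaces a second library. Ratios below are log2 TTS over Control of the summed Klr level unless named otherwise, and the cause of each shift was not tested.

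With no macrophage limit, the ratio was -1.60 in NK, -0.12 in T, 0.47 in ILC2 and 0.57 in DC gates, the ratio of NK shares was -2.65, and 22 NK members were at least 2-fold apart. With the Control limit in both libraries, these values were -1.15, -0.56, 0.49, 0.14, -3.15 and 16. With a limit of 10% of the macrophage median, the ILC2 value was 0.38. Stricter gates gave 0.91 in T cells and 0.36 for Klra in mature over immature cells, and looser gates gave 0.34 in ILC2 and 0.70 in DC gates. Thinning gave -0.51 in NK cells, 4 NK members at least 2-fold apart and 0.66 for Klra by maturity. A minimum of 50 UMIs gave 4 NK members. Without Klrd1, the DC value was 0.069.

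Alternatives chosen after the data were seen gave 0.76 in ILC2 without MHC class II-high barcodes, -0.26 in NK cells without barcodes high in mature DC transcripts, -0.14 in mature and -0.44 in immature NK cells alone, and in T cells -0.14 for effector and 1.21 for naive cells alone. Among effector T cells, Klrk1 was at 0.83 and Klra9 at 0.48, both under 2-fold. The T value was below 0 in 3 of 17 alternatives. The NK, ILC2 and DC values kept their sign in all 19, 16 and 14 alternatives run for them, and the NK share in 11.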
